A study of Mus musculus with 6 samples.

Results

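Expression of 48 genes of the cell cycle and DNA replication was examined in hypoxic primary neonatal mouse cardiomyocytes (NMCMs) treated with vehicle or with β-sitosterol (β-SITO), a plant sterol. The genes were taken by name from the 57010 genes of the count table and were kept as 3 sets: 21 genes of G2/M and mitosis, 22 genes of G1/S and replication, and 5 cell cycle inhibitors. All 48 passed the filter on low counts, which left 14799 genes. The lowest count of any of them in a library was 26, and 46 of the 48 had at least 50 counts in every library.

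The data were 6 bulk RNA-seq libraries, 3 of HO + Vehicle cells (V1 to V3) and 3 of HO + β-SITO cells (T4 to T6), where HO stands for hypoxia. Every library came from hypoxic cells, so no normoxic level was compared here. The study prepared the cells from hearts of C57BL/6 pups aged 1 to 3 days and took those that stayed in suspension while fibroblasts attached, so other cells of the heart can remain among them. Neither the β-SITO dose nor the length of hypoxia behind these libraries is given in the sources used here. The libraries held 16694734 to 17082129 counts (vehicle) and 16962152 to 18460522 (β-SITO). All 3 names of β-SITO libraries end in a suffix that no vehicle name has, so the treatment and any separate preparation cannot be told apart. The labels do not say that the libraries of a group came from separate cultures, so the p-values below measure only the spread between these libraries, which may be technical.

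A dividing cell passes from G1 through DNA synthesis in S phase and then through G2 into mitosis. D-type cyclins with CDK4 and CDK6, and then E-type cyclins with CDK2, phosphorylate the retinoblastoma protein and release E2F factors, which drive the genes of DNA replication. Cyclins A2 and B with CDK1 drive mitosis, and most genes of that phase are held silent in resting cells by a repressor complex called DREAM, which binds promoters at a cell cycle genes homology region (CHR). Cardiomyocytes of the mouse leave the cell cycle soon after birth, and many of them then copy their DNA or divide their nucleus without dividing the cell, whereas fibroblasts, endothelial cells and macrophages of the heart can go on dividing.

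The promoters of the genes differed between the sets in the letters searched for. RefSeq promoter windows (GRCm38.p6, 250 bases before to 50 bases after each start) were found for 39 of the 48 genes, and none was used for Aurkb, Ccna2, Kif20a, Tpx2, Ccnd1, Ccnd2, Ccne2, Mcm4 and Rb1. Each window was searched on both strands for the CHR (TTTGAA), the CCAAT box (CCAAT) and the core of E2F sites (TTCCCGC or TTGGCGC). Matches to different motifs shared letters in 2 of the 39 genes and in 0.677% of the 27025 genes of the RefSeq table. The CHR letters were in the windows of 13 of 17 mitosis genes (76.5%), 2 of 18 G1/S genes (11.1%) and 1 of 4 inhibitors, against 20.2% of all genes of the table. The E2F core was in 3 of 17 mitosis genes (17.6%), 9 of 18 G1/S genes and 2 of 4 inhibitors, against 7.79% of all genes. The CCAAT box was in 15 of 17 (88.2%), 11 of 18 (61.1%) and 3 of 4, against 41.1%. All 13 mitosis genes with the CHR letters rose with β-SITO (median log2 fold change 0.79, calls as defined below), and 3 of the 4 without them rose (median 0.40). These counts are to be read against the 19 of all 21 mitosis genes and the 33.0% of all genes tested that rose. The 4 without the letters were Birc5 (0.92), Ccnb1 (0.42), Bub1 (0.38) and Cenpe (0.10). For the CCAAT box the medians were 0.76 in the 15 mitosis genes with it and 0.90 in the 2 without it. For the E2F core they were 0.52 in the 3 with it and 0.79 in the 14 without it. A link between motif and change was not tested.

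The windows of 6 genes are shown 5′ to 3′ on the strand of the gene as examples chosen after their values had been seen: genes that changed and that hold at least 1 of the motifs. Among the G1/S genes Mcm6 was not the one that fell most, since Ccnd2 and Cdk6 fell more, and the window of Cdk6 holds none of the 3 motifs. Capitals mark every match to the 3 motifs. Kif23 (chr9:61946750-61947049, minus strand), Cenpa (chr5:30666636-30666935, plus strand) and Ccnb2 (chr9:70421505-70421804, minus strand) are mitosis genes that rose by more than 2-fold, and each has the CHR letters just after its start and a CCAAT box before it. E2f2 (chr4:136172024-136172323, plus strand), the G1/S gene with the largest rise, and Mcm6 (chr1:128359656-128359955, minus strand), a G1/S gene that fell, both hold the E2F core. Cdkn2c (chr4:109666707-109667006, minus strand) is an inhibitor that rose and holds the E2F core. For E2f2 and Cdkn2c the first of 2 windows in the table is shown. The counts above take a gene as holding a motif if any of its windows does, so the CHR letters counted for E2f2 and the CCAAT box counted for Cdkn2c are in the window that is not shown.
Kif23: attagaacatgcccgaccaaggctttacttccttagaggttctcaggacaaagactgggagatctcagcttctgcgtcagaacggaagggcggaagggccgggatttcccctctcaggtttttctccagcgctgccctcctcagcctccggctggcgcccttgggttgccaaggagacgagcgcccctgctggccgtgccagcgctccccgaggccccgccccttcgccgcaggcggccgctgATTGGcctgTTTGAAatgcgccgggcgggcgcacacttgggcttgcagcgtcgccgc
Cenpa: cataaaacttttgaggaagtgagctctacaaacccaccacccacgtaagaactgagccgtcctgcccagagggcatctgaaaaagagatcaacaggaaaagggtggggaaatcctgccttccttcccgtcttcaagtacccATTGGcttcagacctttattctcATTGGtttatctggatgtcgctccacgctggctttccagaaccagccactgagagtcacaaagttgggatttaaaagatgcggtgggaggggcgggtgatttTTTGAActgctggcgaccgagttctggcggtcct
Ccnb2: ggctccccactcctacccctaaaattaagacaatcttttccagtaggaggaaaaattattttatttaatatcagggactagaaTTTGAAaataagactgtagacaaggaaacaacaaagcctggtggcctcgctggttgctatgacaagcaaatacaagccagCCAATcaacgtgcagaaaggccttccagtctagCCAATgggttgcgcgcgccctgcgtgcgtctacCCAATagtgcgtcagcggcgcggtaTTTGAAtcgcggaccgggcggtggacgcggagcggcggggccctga
E2f2: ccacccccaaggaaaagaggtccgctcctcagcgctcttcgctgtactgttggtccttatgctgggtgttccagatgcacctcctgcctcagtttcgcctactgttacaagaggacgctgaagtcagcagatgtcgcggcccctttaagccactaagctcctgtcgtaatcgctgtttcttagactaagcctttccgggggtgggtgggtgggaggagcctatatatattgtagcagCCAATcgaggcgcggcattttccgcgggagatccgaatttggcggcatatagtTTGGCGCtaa
Mcm6: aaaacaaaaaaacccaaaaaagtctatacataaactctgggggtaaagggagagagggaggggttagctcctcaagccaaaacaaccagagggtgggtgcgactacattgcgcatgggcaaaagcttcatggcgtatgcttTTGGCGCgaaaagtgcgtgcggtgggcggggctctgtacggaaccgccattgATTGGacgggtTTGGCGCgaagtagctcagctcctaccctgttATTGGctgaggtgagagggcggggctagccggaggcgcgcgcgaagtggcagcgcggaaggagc
Cdkn2c: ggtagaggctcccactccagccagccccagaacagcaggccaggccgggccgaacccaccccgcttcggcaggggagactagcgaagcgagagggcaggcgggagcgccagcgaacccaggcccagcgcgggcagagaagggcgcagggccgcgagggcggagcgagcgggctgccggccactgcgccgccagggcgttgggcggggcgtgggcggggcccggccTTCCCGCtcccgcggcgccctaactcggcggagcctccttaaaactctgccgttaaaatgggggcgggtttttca
The CHR letters begin at position 3 after the start in Kif23, 17 in Cenpa and 5 in Ccnb2, which has a further match at -167. A match is a run of letters and was not tested as a binding site.

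Each of the 14799 genes was tested by quasi-likelihood in edgeR, with p-values adjusted over all of them (Benjamini-Hochberg). Genes with an adjusted p under 0.05 are called higher or lower. With β-SITO, 30 of the 48 genes were higher, 9 were lower and 9 did not pass. Among all genes tested 33.0% were higher and 33.8% were lower, 66.8% in either direction. A gene was called a differentially expressed gene (DEG) if it also changed by more than 2-fold. In this fit that held for 8 of the 48, all of them higher. Over all genes 12.8% were DEGs that were higher, 10.1% DEGs that were lower and 22.8% DEGs in either direction. Vehicle and treated libraries did not overlap for 40 of the 48 genes, against 70.5% of all genes. The median log2 fold change was 0.45 over the 48 genes and -0.01 over all genes tested. By set, the median was 0.78 for mitosis, 0.06 for G1/S and replication, and 0.72 for the inhibitors.

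**Figure D1:**
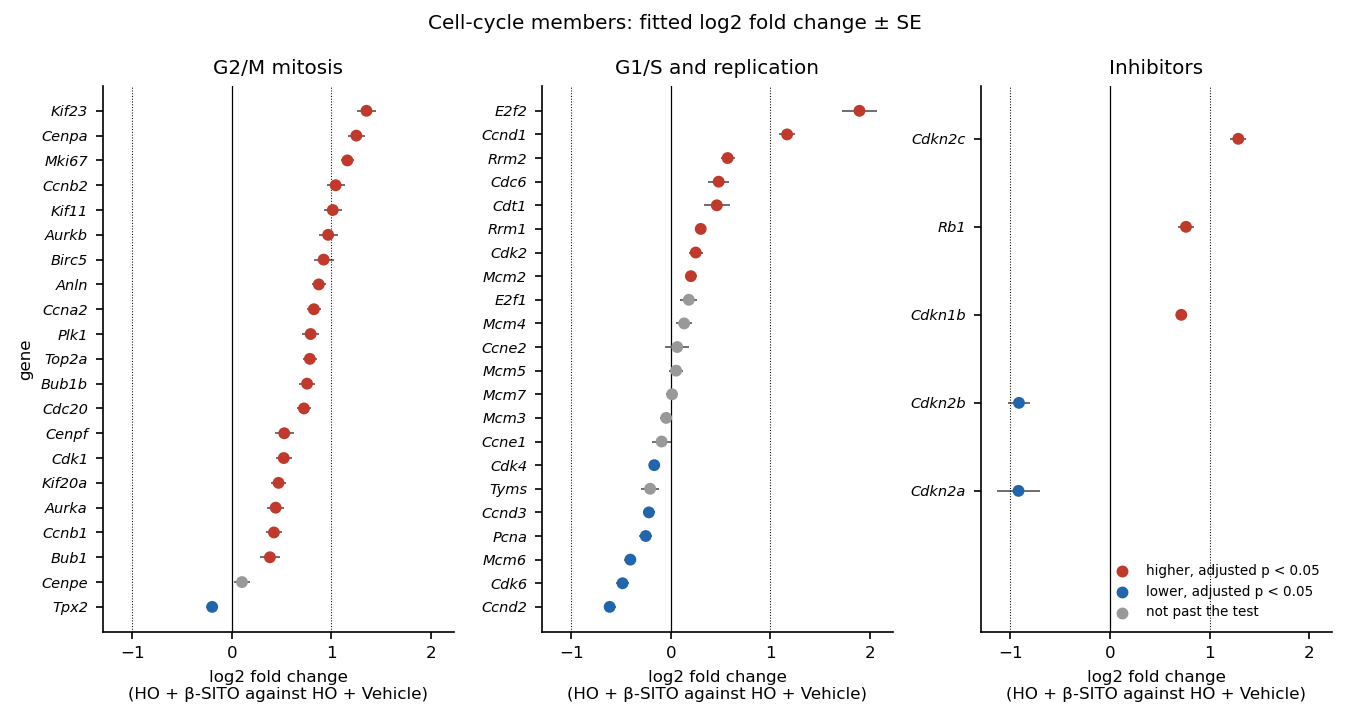
Fitted log2 fold changes of the 48 genes (HO + β-SITO against HO + Vehicle, horizontal axis), 1 gene a row, in 3 panels for the sets. Points are estimates, bars are SE, colours give the call at an adjusted p under 0.05, and dotted lines mark a 2-fold change. The mitosis genes lie to the right of 0 except Tpx2, whereas the G1/S genes lie on both sides.

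The genes of mitosis rose nearly as a whole. Of the 21 genes, 19 were higher with β-SITO (33.0% of all genes were), Tpx2 was lower and Cenpe did not pass. Of the 19, 5 were DEGs, while 12.8% of all genes tested were DEGs that were higher. Groups did not overlap for 20 of the 21, against 70.5% of all genes tested. Their summed level was 527.4 CPM in V1, 544.1 in V2 and 544.3 in V3, and 901.4 in T4, 865.4 in T5 and 851.5 in T6, a ratio of 1.62. CPM are counts divided by library size, here after TMM scaling. The 19 rises ran from a log2 fold change of 0.38 in Bub1 to 1.35 in Kif23. In these bulk libraries, more cells in division and more of these mRNAs per cell cannot be told apart. The libraries also do not tell which cell types held these mRNAs.

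The cyclins and kinases that drive entry into mitosis rose in all 7 cases. Ccnb2, a B-type cyclin that binds CDK1, measured 15.0, 16.99 and 13.8 CPM in V1 to V3 and 31.9, 29.2 and 33.1 CPM in T4 to T6. The lowest treated library thus lay well above the highest vehicle library, and the fold change was 2.06 (log2 1.04 ± 0.09 SE, adjusted p = 7.52e-08). Aurkb, the kinase of the chromosomal passenger complex, rose by a log2 fold change of 0.97 (11.0 ± 0.781 to 21.6 ± 1.51 CPM, SD, n = 3 per group here and below). Ccna2, the cyclin that spans S phase and early mitosis, rose by 0.83 (25.2 ± 0.930 to 44.7 ± 1.31 CPM). Plk1, the polo-like kinase of centrosomes and kinetochores, rose by 0.79 (17.6 ± 1.61 to 30.4 ± 1.32 CPM). The rises of Cdk1 (35.4 ± 3.50 to 50.9 ± 3.43 CPM), Aurka, a spindle pole kinase (16.3 ± 1.18 to 22.1 ± 0.804 CPM), and Ccnb1 (26.1 ± 0.330 to 35.1 ± 3.81 CPM) were smaller, at log2 fold changes of 0.52, 0.44 and 0.42. Ccnb1, the other B-type cyclin, thus rose by 1.34-fold where Ccnb2 rose by 2.06-fold. The difference between these 2 fold changes was not tested.

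Genes of the centromere and the spindle checkpoint were higher for 6 of 7. Cenpa, the histone H3 variant that marks centromeres, measured 13.3, 13.5 and 12.5 CPM in V1 to V3 and 32.3, 28.9 and 32.3 CPM in T4 to T6. The 2 groups were far apart relative to the spread within each, and Cenpa rose 2.38-fold (log2 1.25 ± 0.08 SE, adjusted p = 3.43e-09). Birc5, which encodes survivin, a subunit of the chromosomal passenger complex, rose by a log2 fold change of 0.92 (10.5 ± 0.597 to 19.9 ± 1.88 CPM). The checkpoint kinase gene Bub1b rose by 0.76 (25.4 ± 0.816 to 42.9 ± 3.24 CPM) and Cdc20, the activator of the anaphase-promoting complex, by 0.73 (21.1 ± 0.366 to 34.8 ± 1.73 CPM). Cenpf, a large protein of the outer kinetochore, rose by 0.53 (19.9 ± 1.92 to 28.7 ± 2.96 CPM). Bub1 had the smallest of the rises in mitosis genes, 0.38 (10.4 ± 0.953 to 13.6 ± 0.625 CPM, adjusted p = 0.00387). Cenpe, a kinetochore motor that moves chromosomes to the spindle equator, measured 19.1, 21.5 and 21.3 CPM in the vehicle libraries and 22.4, 23.2 and 20.9 CPM in the treated ones. These values overlap, and the log2 fold change of 0.10 ± 0.08 SE did not pass (adjusted p = 0.293).

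Spindle motors and genes of cytokinesis held the largest rise and the only fall of the mitosis set. Kif23, the kinesin of centralspindlin that organises the midbody, measured 7.14, 7.77 and 7.87 CPM in V1 to V3 and 20.7, 18.8 and 18.7 CPM in T4 to T6. It rose 2.55-fold (log2 1.35 ± 0.10 SE, adjusted p = 7.88e-09), with a wide gap between the groups. Kif11, the motor that pushes spindle poles apart, measured 13.3, 14.9 and 12.02 CPM in the vehicle libraries and 28.0, 27.8 and 25.6 CPM in the treated ones. It rose 2.02-fold (log2 1.01 ± 0.09 SE, adjusted p = 1.17e-07), close to the DEG cutoff. Anln, the actin-binding scaffold of the cleavage furrow, rose by a log2 fold change of 0.87 (29.3 ± 1.65 to 53.7 ± 2.31 CPM), and Kif20a, a kinesin of the central spindle, by 0.47 (23.2 ± 0.947 to 32.1 ± 0.368 CPM). Tpx2, which activates Aurora A on spindle microtubules, went the other way, with 65.9, 65.4 and 69.6 CPM in V1 to V3 and 60.02, 56.1 and 59.2 CPM in T4 to T6. The groups did not overlap and the fall was small (log2 -0.20 ± 0.06 SE, adjusted p = 0.0106). It did not pass without V3, without T5, or with library size or upper quartile scaling.

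Both genes of chromosome structure rose. Mki67, which encodes the proliferation marker Ki-67 that coats mitotic chromosomes, measured 51.9, 59.2 and 54.7 CPM in V1 to V3 and 120.0, 131.9 and 118.8 CPM in T4 to T6. All 3 treated libraries were at about the same level, more than 2-fold above the vehicle libraries (2.24-fold, log2 1.16 ± 0.07 SE, adjusted p = 5.56e-10). Top2a, the topoisomerase that untangles sister chromatids, rose by a log2 fold change of 0.78 (74.9 ± 6.98 to 129 ± 6.77 CPM).

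**Figure D2:**
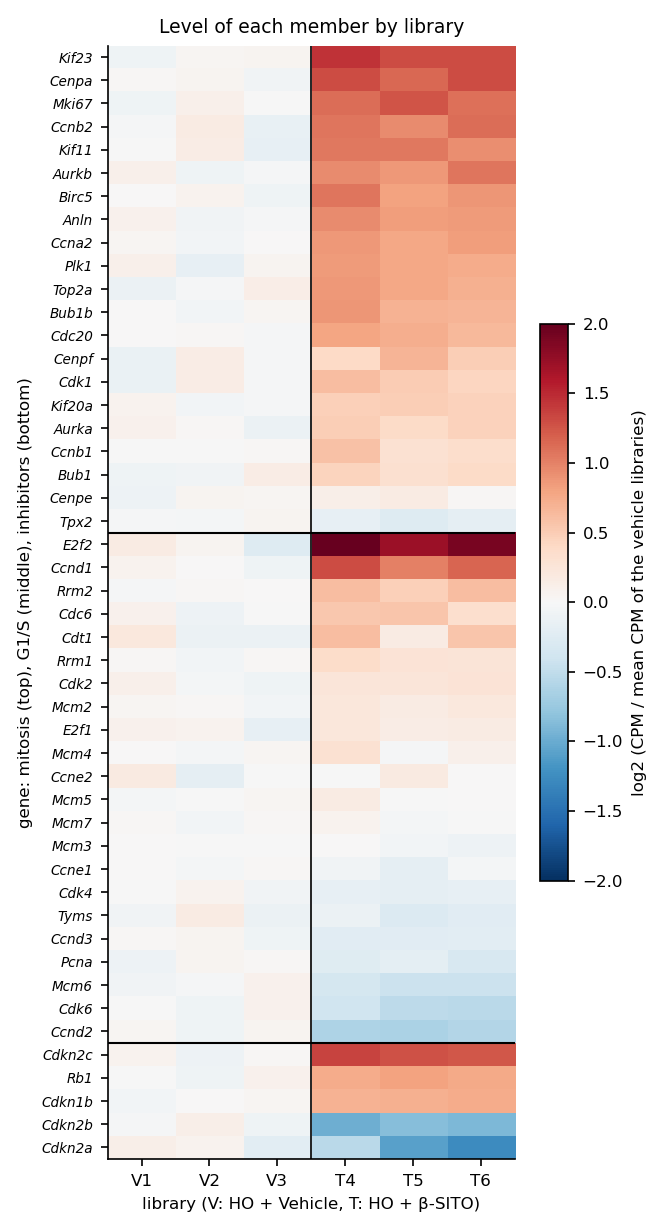
Level of each gene in each library as log2 of its CPM over the mean of the 3 vehicle libraries (colour), with genes in rows and libraries in columns. Mitosis genes (top) are raised in T4, T5 and T6 alike, G1/S genes (middle) are mixed, and Cdkn2a and Cdkn2b (bottom) are lowered in all 3.

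The genes of G1/S and replication moved both ways. Of the 22, 8 were higher, 6 were lower and 8 did not pass, and the groups did not overlap for 15. These shares, 36.4% higher and 27.3% lower, lay near those of all genes tested (33.0% and 33.8%, with 70.5% not overlapping). The only DEGs among them were E2f2 and Ccnd1. The summed level of the set was 1658 to 1700 CPM in the vehicle libraries and 1490 to 1577 CPM in the treated ones. Its mean went from 1685 to 1529 CPM, and that of Ccnd2, its largest part, from 470 to 307 CPM. Ccnd2 alone thus accounts for the fall of the sum. The split into higher and lower genes depended on scaling. With library size alone, or with upper quartile scaling, which moved the median of all genes tested to 0.14, 12 of the 22 were higher and 3 were lower.

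The D-type cyclins, which carry growth signals into the cycle, moved in opposite directions, with Ccnd1 higher and Ccnd2 and Ccnd3 lower. Ccnd1 measured 42.6, 41.1 and 38.2 CPM in V1 to V3 and 100.8, 82.0 and 90.9 CPM in T4 to T6. It more than doubled in every treated library relative to the vehicle mean (2.25-fold, log2 1.17 ± 0.08 SE, adjusted p = 3.34e-09). Ccnd2 measured 482.2, 440.6 and 487.5 CPM in the vehicle libraries and 306.8, 302.2 and 312.2 CPM in the treated ones. It fell in all 3 treated libraries (log2 -0.61 ± 0.06 SE, 1.53-fold lower, adjusted p = 2.14e-07). Ccnd3 fell less, from 114 ± 5.78 to 98.0 ± 0.753 CPM (log2 -0.22, adjusted p = 0.00367), and did not pass with library size or upper quartile scaling. The partner kinases fell too, Cdk6 from 127 ± 8.07 to 90.9 ± 5.23 CPM (log2 -0.48) and Cdk4 from 207 ± 9.90 to 184 ± 0.900 CPM (log2 -0.17, adjusted p = 0.0175). The call for Cdk4 was lost with the same scalings and without V1, V2, T5 or T6.

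Levels of different genes were compared after division by exon length, as reads per kilobase of exon on the CPM scale (RPKM). On this scale Ccnd1 made up 12.3%, 12.6% and 11.2% of the summed D-type cyclins in V1 to V3 and 32.9%, 28.7% and 30.3% in T4 to T6. Ccnd2 made up 69.7%, 67.8% and 71.8%, and then 50.1%, 52.9% and 52.0%. Ccnd2 thus remained the most abundant D-type cyclin mRNA in every library. The share of Ccnd1 rose by 18.6 percentage points and that of Ccnd2 fell by 18.1, each with no overlap between groups (p = 0.1 in a two-sided exact permutation test, the lowest possible with 3 libraries a group, and 0.167 after adjustment over 5 shares). The share of Ccnd3 was 18.2% ± 1.29 and 17.7% ± 0.654 (SD, exact permutation p = 0.7). The summed level of the 3 cyclins was 69.1 to 73.6 RPKM in the vehicle libraries and 60.7 to 65.1 in the treated ones. Cdk4 made up 87.5% ± 1.22 of Cdk4 and Cdk6 together in the vehicle group and 89.7% ± 0.513 in the treated group (exact permutation p = 0.1, adjusted 0.167).

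**Figure D3:**
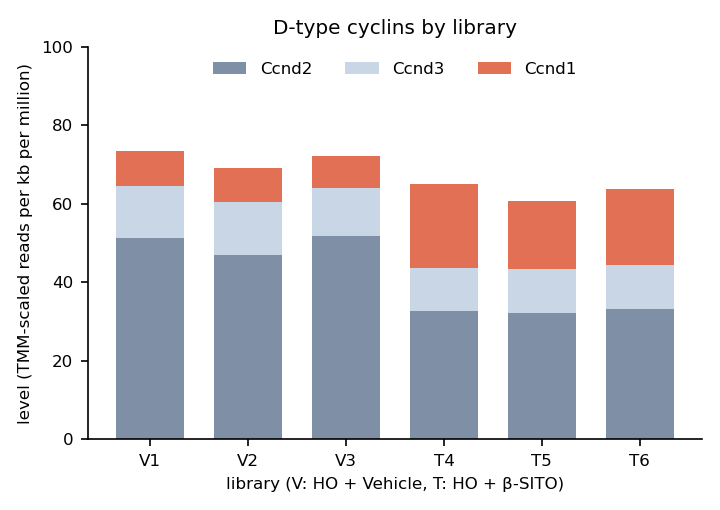
Length-scaled level of the 3 D-type cyclin genes in each library (stacked bars from 0, RPKM after TMM scaling). The Ccnd1 segment is larger and the Ccnd2 segment smaller in all 3 HO + β-SITO libraries, while the summed height ranges from 60.7 to 73.6.

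E2f2, an activator of replication genes, had the largest fold change of the 48 genes at one of the lowest levels. It measured 2.15, 2.01 and 1.61 CPM in V1 to V3 and 7.97, 6.30 and 7.18 CPM in T4 to T6. It rose 3.72-fold (log2 1.89 ± 0.18 SE, adjusted p = 1.40e-07), and no treated library came near the vehicle range. E2f1, its close relative, measured 19.98 ± 1.798 and 22.6 ± 0.618 CPM and did not pass (log2 0.18, adjusted p = 0.0760), although its groups did not overlap. Cdk2 rose slightly (36.2 ± 2.41 to 43.0 ± 0.557 CPM, log2 0.25, adjusted p = 0.00533). Its partners, the E-type cyclins, did not pass, with 12.6 ± 0.354 and 11.8 ± 0.588 CPM for Ccne1 (log2 -0.09) and 9.42 ± 1.17 and 9.85 ± 0.717 CPM for Ccne2 (log2 0.06). Ccne1 made up 63.9% ± 2.42 of the length-scaled E-type cyclins in the vehicle group and 61.2% ± 2.86 in the treated group (exact permutation p = 0.4).

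Licensing genes, which load the replicative helicase onto origins, showed no common shift. Cdc6 rose by a log2 fold change of 0.48 (9.25 ± 0.601 to 12.9 ± 1.08 CPM) and Cdt1 by 0.46 (10.5 ± 1.41 to 14.4 ± 2.29 CPM), the latter with overlapping groups. Of the 6 subunits of the MCM2-7 helicase, Mcm2 rose (43.7 ± 1.56 to 50.2 ± 1.05 CPM, log2 0.20, adjusted p = 0.0116) and Mcm6 fell. Mcm6 was at 117 ± 6.95 CPM in the vehicle group and 88.3 ± 2.97 CPM in the treated group, with no overlap (log2 -0.41, adjusted p = 3.07e-05). Mcm7 measured 58.996, 56.4 and 59.4 CPM in V1 to V3 and 61.4, 56.6 and 58.1 CPM in T4 to T6, values that overlap throughout (log2 0.01 ± 0.06 SE, adjusted p = 0.876). Mcm3, next to Mcm7 in the size of its log2 fold change, measured 77.9, 76.7 and 77.2 CPM and then 77.9, 74.3 and 72.1 CPM (log2 -0.05 ± 0.06 SE, adjusted p = 0.493). Mcm4 (43.8 ± 1.20 and 48.0067 ± 5.46 CPM, log2 0.13) and Mcm5 (49.1 ± 1.41 and 51.0 ± 3.42 CPM, log2 0.05) did not pass either. The summed level of the 6 subunits was 384.1 to 398.7 CPM in the vehicle libraries and 358.3 to 390.7 CPM in the treated ones, so it overlapped.

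Pcna and the genes that supply nucleotides also moved both ways. Both subunits of ribonucleotide reductase, which makes deoxyribonucleotides, rose: Rrm2, the subunit that is limiting in S phase, by a log2 fold change of 0.57 (32.0 ± 0.461 to 47.5 ± 2.70 CPM, adjusted p = 3.03e-06) and Rrm1 by 0.30 (112 ± 3.15 to 138 ± 5.40 CPM). Pcna, the sliding clamp of DNA polymerases, fell from 68.4 ± 3.89 to 57.5 ± 2.25 CPM (log2 -0.25, adjusted p = 0.00310), a call that was lost with library size or upper quartile scaling. Tyms, thymidylate synthase, measured 24.9 ± 2.67 and 21.5 ± 1.19 CPM and did not pass (log2 -0.21, adjusted p = 0.0533).

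Ranked by length-scaled level in the vehicle group, the genes at the top were all of the G1/S set. Cdk4 (63.6 RPKM) and Ccnd2 (49.96) led and stood above 94.3% and 92.9% of the tested genes with a length, and Pcna (28.5) and Mcm6 (25.1) followed. Tpx2 led the mitosis set at 14.3, followed by Cdc20 at 11.3 and Ccnb2 at 9.95. Kif23 (0.961) and E2f2 (0.394), with the largest fold changes of their sets, were the lowest of the mitosis and G1/S genes.

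The 5 inhibitors all changed, 3 upward and 2 downward, and for all 5 the groups did not overlap. Over all genes tested, 66.8% were called in either direction and 70.5% did not overlap. Cdkn2c, which encodes the CDK4 and CDK6 inhibitor p18INK4c, measured 15.3, 13.7 and 14.9 CPM in V1 to V3 and 37.3, 35.2 and 34.8 CPM in T4 to T6. It was the only DEG of the set (2.44-fold, log2 1.29 ± 0.08 SE, adjusted p = 1.21e-09), with replicates close together in each group. Cdkn1b, which encodes p27Kip1, measured 68.6, 71.7 and 72.7 CPM and then 114.5, 116.2 and 119.4 CPM (log2 0.72 ± 0.06 SE, adjusted p = 2.43e-08). Rb1, the retinoblastoma gene, measured 18.3, 17.2 and 19.4 CPM and then 30.6, 31.8 and 30.8 CPM (log2 0.76 ± 0.08 SE, adjusted p = 4.29e-07). Both rose in every treated library. The neighbouring genes Cdkn2a (GRCm39 chr4:89192708-89212890) and Cdkn2b (chr4:89224536-89229276), both on the minus strand, were lower. Cdkn2b, which encodes p15INK4b, measured 13.1, 14.5 and 12.5 CPM in the vehicle libraries and 6.78, 7.36 and 7.13 CPM in the treated ones (log2 -0.91 ± 0.11 SE, adjusted p = 2.24e-06). Cdkn2a, which encodes p16INK4a and p19ARF from different first exons, measured 4.04, 3.89 and 3.22 CPM and then 2.57, 1.74 and 1.56 CPM (log2 -0.92 ± 0.22 SE, adjusted p = 0.00169). Counts per gene do not separate these 2 products. Thus within the INK4 family Cdkn2c rose while Cdkn2a and Cdkn2b fell, and all 3 directions held in every alternative tried.

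Genes of the same pathways outside the 48 were taken from lists for mitosis, replication and inhibition, chosen with earlier results of these data known. Of 60 other mitosis genes, 48 were higher and 3 were lower (median log2 fold change 0.59). Of 59 other replication genes, 32 were higher and 7 were lower (median 0.24). Of 20 other inhibitors, 5 were higher and 8 were lower (median -0.13). Over all 3 lists 85 genes were higher and 18 lower, against 33.0% and 33.8% of all genes tested. The other mitosis genes thus had a high share of rises, as the 21 did, and the other replication genes had more rises than falls, which the 22 had by only 8 to 6.

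**Figure D4:**
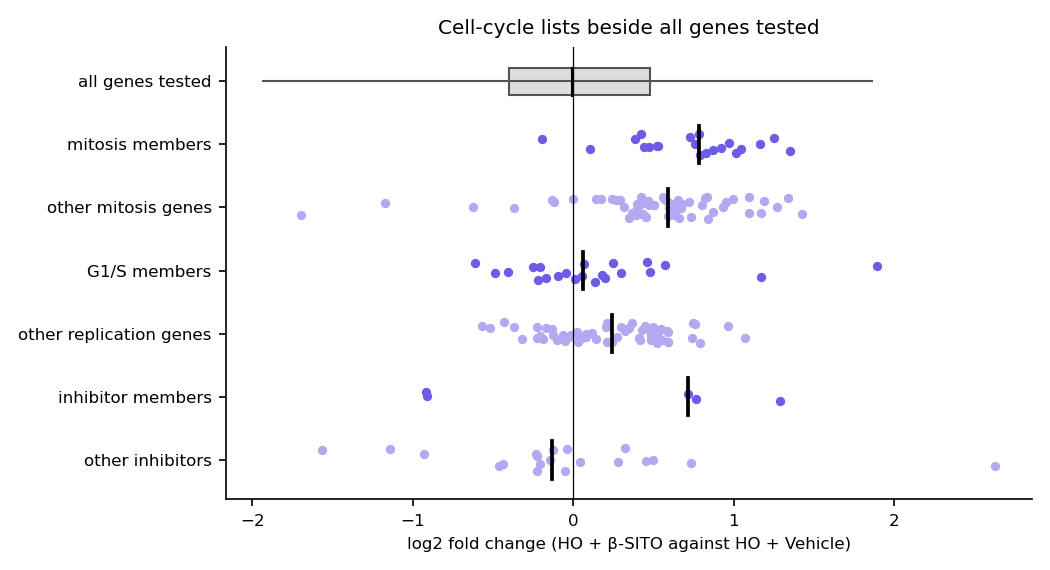
Log2 fold changes (horizontal axis) of the 3 sets and of the 3 lists of other genes, 1 point a gene, with black bars at the medians. The grey box gives the quartiles of all genes tested, its line their median and the whiskers the 5th and 95th percentiles. The mitosis sets have medians of 0.78 and 0.59, whereas the other inhibitors spread widely around -0.13.

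Among the other mitosis genes the largest rises were those of Ncapd2, a condensin subunit (29.4 ± 1.09 to 79.1 ± 2.499 CPM, log2 1.43), and Kif15, a spindle kinesin (4.05 ± 0.457 to 10.2 ± 0.780 CPM, log2 1.34). The falls were those of Trip13, which disassembles checkpoint complexes (27.7 ± 1.44 to 8.53 ± 0.982 CPM, log2 -1.70), of Pttg1, which encodes securin (90.1 ± 7.56 to 39.97 ± 0.663 CPM, log2 -1.17), and of the kinetochore gene Zwint (log2 -0.63). These falls ran against the rise of their list. Separase, the protease that securin holds inactive, is encoded by Espl1, which rose from 6.75 ± 0.834 to 15.3 ± 0.993 CPM (log2 1.19). Grouped by complex, a grouping made after the values had been seen, the chromosomal passenger complex was higher for 4 of 4 genes, at log2 fold changes of 0.83 to 0.97. Centralspindlin was higher for both of its genes, Kif23 and Racgap1 (log2 1.10). Condensin I with its shared subunits was higher for 5 of 5, and the Ndc80 complex for 4 of 4. Such counts are to be read against the 80.0% of the other mitosis genes and 33.0% of all genes tested that were higher. By contrast, GINS, a part of the replicative helicase, had 1 of 4 genes higher and 1 lower.

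Among the other replication genes Tk1, thymidine kinase, rose by a log2 fold change of 1.07 (13.0 ± 2.15 to 27.2 ± 1.79 CPM), and E2f8, a repressive E2F, by 0.97 (5.30 ± 0.279 to 10.3 ± 1.79 CPM). Rfc3, a subunit of the clamp loader of PCNA, fell by 0.57 on the log2 scale (16.4 ± 0.936 to 11.1 ± 0.445 CPM), and Usp1, which removes ubiquitin from PCNA, fell by 0.52 (56.9 ± 2.53 to 39.7 ± 1.61 CPM). Of 61 replication-dependent core histone genes in the table, 8 passed the filter, of which 1 was higher and 3 were lower. Most of these mRNAs lack a poly(A) tail, and the study prepared mRNA libraries.

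Among the other inhibitors the 2 most changed genes were CDK inhibitors that moved in opposite directions. Cdkn1a, which encodes p21 and is a target of p53, measured 424, 413 and 401 CPM in V1 to V3 and 138, 137 and 143 CPM in T4 to T6, a fall by 1.57 on the log2 scale with the groups far apart (adjusted p = 1.44e-12). Cdkn1c, which encodes p57Kip2, measured 2.46, 1.76 and 1.86 CPM and then 14.3, 12.4 and 11.0 CPM, a rise of 2.63 on the log2 scale (adjusted p = 1.41e-09). On the length scale Cdkn1a was at 116.2 RPKM in the vehicle group and 39.2 in the treated group, still above Cdkn1b, which was at 15.6 and 25.6. The 7 INK4 and CIP/KIP genes together summed to 528.4 to 550.9 CPM in the vehicle libraries and 333.6 to 340.5 CPM in the treated ones, with 3 genes higher, 3 lower and Cdkn2d not passing. Cdkn1a alone set the direction of this sum, as most of it in the vehicle libraries (401 to 424 CPM). The sum of the others was higher in every treated library than in any vehicle library. Btg1, an antiproliferative gene, fell by 1.14 on the log2 scale (204 ± 3.14 to 92.5 ± 5.18 CPM). Of the relatives of Rb1, Rbl2, which encodes p130 of the DREAM complex, rose by 0.73 (31.2 ± 0.915 to 51.9 ± 0.129 CPM), and Rbl1, which encodes p107 and was named after its values had been seen, fell by 0.93 (45.7 ± 1.94 to 24.0 ± 3.06 CPM).

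**Figure D5:**
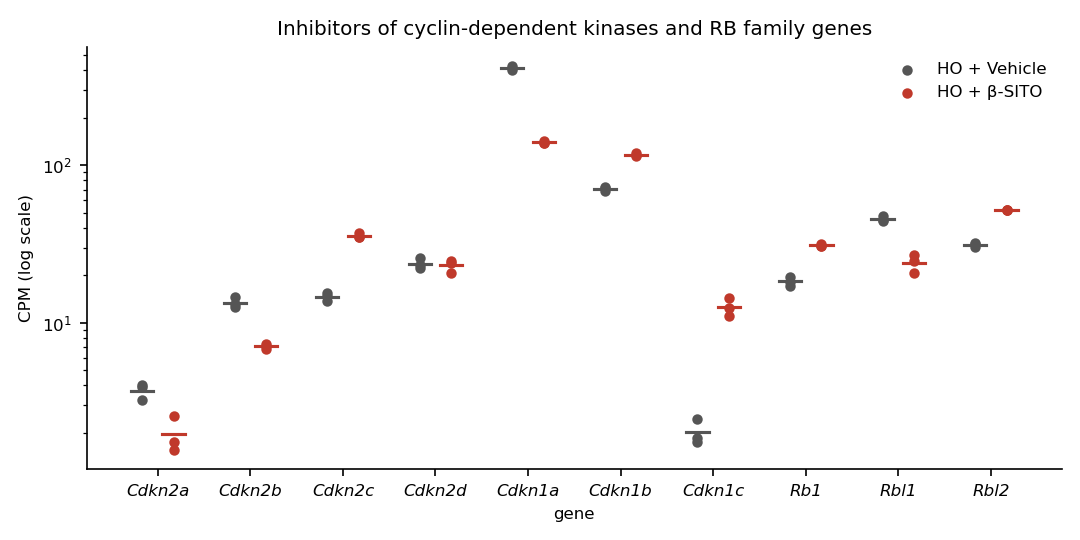
CPM (log scale) of the INK4, CIP/KIP and RB family genes, with 1 point a library and a line at each group mean. Cdkn1a, Cdkn2a, Cdkn2b and Rbl1 are lower and Cdkn1b, Cdkn1c, Cdkn2c, Rb1 and Rbl2 higher in the HO + β-SITO libraries, and Cdkn2d overlaps.

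Marker lists of heart cell types are given beside these genes, and their counts are to be read against the 33.0% of all genes tested that were higher and the 33.8% that were lower. All 18 cardiomyocyte markers were tested, of which 8 were higher and 2 were lower, and their summed level was 7380 to 8521 CPM in the vehicle libraries and 6532 CPM in T4 against 11025 and 11159 CPM in T5 and T6. The mitosis genes had their highest sum in T4 (901.4 CPM, against 865.4 and 851.5 in T5 and T6). Fibroblast markers were higher for 8 of 11 and lower for 2 (30283 to 31538 against 45396 to 46529 CPM), and macrophage markers were higher for 10 of 14 and lower for 2 (1413 to 1539 CPM in the vehicle libraries, and 3680, 3022 and 3000 CPM in T4, T5 and T6). Smooth muscle and pericyte markers were higher for 9 of 9 (1133 to 1231 against 1966 to 2243 CPM), epicardial markers for 5 of 5 (53.3 to 58.9 CPM, and 107.7, 87.4 and 89.7 CPM in T4, T5 and T6), and endothelial markers were higher for 9 of 11 and lower for 2 (1229 to 1370 against 1376 to 1405 CPM). Among the treated libraries the macrophage and epicardial sums were thus also highest in T4. The fibroblast (46529 CPM) and endothelial (1405 CPM) sums were highest in T5, and the smooth muscle and pericyte sum was lowest in T4 (1966 CPM). The part of these cell types in the results was not tested. Lymphocyte and erythroid lists had no gene that passed the filter, with Cd3e, Cd3d, Hba-a2, Hbb-bs and Hbb-bt at 0 counts in all libraries, and of the neutrophil list Csf3r alone was tested and was lower, with Ly6g and Retnlg at 0.

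Reads of some of these genes can be shared with others, since the strand setting of the counting is not given in the sources used here. Ccna2, Ccnd1, Ccnd3, Ccne2, Cdc20, Cdk2, Cdk4, Kif20a, Mcm7 and Rb1 overlap a counted gene on the opposite strand, so the values of these 10 are uncertain to that extent. Without them, 16 of 18 mitosis genes were higher. Named pseudogenes of Ccnb1, Ccnb2, Ccnd3, Pcna and Tyms held at most 28 counts in a library.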

How the data were processed

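The study sequenced mRNA libraries of NMCMs. The authors deposited 1 table of raw counts per gene from featureCounts, with no normalization. The submitters' processing notes also name FastQC, HISAT2 and GRCm39, without versions, and the gene coordinates are those of the table. For the library kit, the study and the sample records name different makers.

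From the deposited counts, genes were filtered with filterByExpr, scaled with TMM and tested with edgeR 4.0.16 (quasi-likelihood, Benjamini-Hochberg adjustment) in R 4.3.3, with the group as the only term. The biological coefficient of variation was 6.52%. Levels per length used exon lengths of GENCODE vM21, matched by gene identifier. Shares were compared by exact permutation tests. TMM factors ranged over 0.945 to 0.956 (vehicle) and 1.05 to 1.06 (β-SITO). Mitochondrially encoded genes took 1.19% to 1.32% and 1.87% to 2.26% of counts.

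The 48 genes and all lists were chosen with earlier results of these data known. Library values are given for DEGs and, in each set, for the 3 genes past the test with the largest and the 2 with the smallest absolute change, and from each list of other genes the 2 largest rises and falls are named. Zwint, Espl1, Racgap1, Cdkn2d, Rbl1 and the complexes were added after their values had been seen. Alternatives were DESeq2 1.42.0, limma-voom (limma 3.58.1), other scalings and filters, removal of mitochondrially encoded genes, a 2-fold cutoff and leaving out each library.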

Additional observations from a re-analysis of the deposited data

How the results depend on the processing

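The counts of mitosis, G1/S and inhibitor genes were the same under DESeq2, limma-voom, RLE scaling, no filter, a stricter filter and removal of mitochondrially encoded genes. Requiring more than 2-fold left 5 mitosis genes higher and 0 lower, 2 G1/S genes higher and 0 lower, 1 inhibitor higher and 0 lower, and 1888 higher and 1492 lower among all genes, because the cutoff is stricter by construction. With upper quartile scaling and with library size only, the mitosis genes that were lower went from 1 to 0, their median to 0.93 in both, the G1/S genes that were lower from 6 to 3, and the G1/S median to 0.20 and 0.21. With library size only, the other replication genes that were lower went from 7 to 3 and the other inhibitors from 8 to 5. Their factors lie near 1 in every library, whereas those of TMM differ between the groups.

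With each library left out in turn, 19 mitosis genes stayed higher, 0 to 1 were lower (0 without V3 or T5), and the median was 0.74 to 0.84. For G1/S genes 8 to 9 were higher, 5 to 7 lower, and the median was 0.0205 to 0.11 (0.11 without V1). Inhibitors gave 3 higher and 2 lower throughout. The other replication genes that were lower numbered 4 to 8 (4 without T5) and the other inhibitors 5 to 7 (5 without V1 or T5). These fits hold fewer samples. Shares moved by 17.4 to 19.5 percentage points for Ccnd1, -19.0 to -17.0 for Ccnd2, -1.10 to 0.18 for Ccnd3 (0.18 without V2), 1.62 to 2.84 for Cdk4 and -4.00 to -1.03 for Ccne1. Without length scaling, an alternative added after seeing the data, the differences were 11.9 for Ccnd1, -13.3 for Ccnd2, 5.08 for Cdk4 and 1.46 for Ccnd3, whose main value was -0.50.

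The log2 fold change changed sign only for genes that had not passed: Ccne1 (0.0507 with upper quartile, 0.0557 with library size only), Mcm3 (0.0962 and 0.101), and, when single libraries were left out, Ccne2 (-0.0176 to 0.180, lowest without V2), Mcm5 (-0.00288 to 0.115, lowest without T4) and Mcm7 (-0.0206 to 0.0673, below 0 without V2 or T4). Calls were lost under some setting for Tpx2, Ccnd3, Cdk4 and Pcna, and gained for Cenpe, E2f1, Mcm4, Mcm5, Mcm7 and Tyms. The other 35 of the 48 genes kept their direction and side of the adjusted p threshold in all 14 alternatives. The 2-fold cutoff for DEGs was crossed in some fits, so the DEG count was not fixed. Without T4, Cdkn2a was at a log2 fold change of -1.17 and Kif11 at 0.993. Without V3, Kif11 was at 0.964 and Ccnb2 at 0.998. With library size only, Aurkb, Birc5 and Anln were at 1.12, 1.07 and 1.02. Causes were not tested beyond what the settings themselves fix. No paired analysis was possible because the groups share no replicate numbers. At this depth Cdkn2a and E2f2, with fewer than 50 counts in some library, are the least precise of the 48.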

Other observations

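Genes of the DREAM complex and other regulators of mitotic and replication genes were looked at after their values had been seen. Foxm1, an activator of G2/M genes, rose from 21.7 ± 1.24 to 33.1 ± 1.11 CPM (SD, n = 3 per group, log2 0.61), while Mybl2, which encodes B-MYB and acts with it, measured 9.15 ± 1.07 and 8.42 ± 0.237 CPM and did not pass (log2 -0.12). Of the subunits that DREAM shares with the B-MYB complex, Lin54, which binds the CHR, and Lin9 were lower (log2 -0.44 and -0.46), and Lin37 and Lin52 did not pass (log2 -0.12 and -0.05). E2f4, the E2F of DREAM in resting cells, was lower (log2 -0.23). Rbl2, which encodes p130 of the same complex, was higher (log2 0.73), and its relative Rbl1 was lower (log2 -0.93), as given above. Among all genes tested 33.0% were higher and 33.8% lower. The part of these regulators in the changes was not tested. E2f7, a repressive E2F like E2f8, rose by 0.74, and Gmnn, which encodes geminin, the inhibitor of CDT1, by 0.79 (7.68 ± 0.543 to 13.3 ± 1.27 CPM). Cdc25b, a phosphatase that activates CDK1, rose by 1.27 (10.4 ± 1.43 to 25.1 ± 0.305 CPM).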
